A study of Drosophila melanogaster with 3 samples.

Results

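The actin and tubulin genes described here are 10 named genes of Drosophila melanogaster, out of 13945 protein-coding genes, that encode the subunits of actin filaments and microtubules. They are the actin genes Act5C, Act42A, Act87E and Act88F, the α-tubulin genes alphaTub84B, alphaTub84D and alphaTub67C, the β-tubulin genes betaTub56D and betaTub60D, and the γ-tubulin gene gammaTub23C. They were chosen by name, and all 10 were found in the gene models. A region was assigned to a gene when its summit, the position of strongest enrichment, lay in the gene span or within 2 kb upstream, which is called the gene's window here. Act5C, Act42A, alphaTub84B, alphaTub84D, betaTub56D and gammaTub23C were classed as ubiquitous, and Act87E, Act88F, alphaTub67C and betaTub60D as tissue-restricted or maternal, from textbook expression and not from these files.

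The measurement was chromatin immunoprecipitation followed by sequencing (ChIP-seq) for HLHm7, the product of the E(spl)m7-HLH gene, in whole embryos of mixed sex from 0 to 16 h of age. The embryos came from a transgenic Drosophila line, labelled HLHm7-GFP, in which the protein is stably expressed with a C-terminal GFP. An anti-GFP antibody was used for the precipitation, per one label; another gives E(spl)m7-HLH itself as the antibody. The 3 samples are biological replicates of 1 group from the same line, so no conditions or genotypes are compared, and because whole embryos of all these ages were mixed, no tissue or stage can be assigned to a peak.

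The lists used were the authors' optimal set, their pooled list and a list for each replicate, all on the dm6 build. The optimal set, made by an irreproducible discovery rate (IDR) procedure, held 2397 peaks. They were the 2397 regions of highest signal in the pooled list. The pooled list and each replicate list held 30000 regions and contain background regions. Signal is the authors' own value per region with no stated scale, so it is used only to rank regions within a list, where rank 1 is the highest. Read depth is unknown, because the files used give no read numbers.

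Actin and tubulin are among the most abundant proteins of every animal cell. Flies make them from small gene families: some members are used in nearly all cells, while others serve muscle, the egg or particular organs. γ-Tubulin differs from the other tubulins in that it seeds microtubules at the centrosome and is not a bulk subunit of the polymer. HLHm7 belongs to the basic helix-loop-helix-orange repressors of the Enhancer of split complex, which Notch signalling switches on and which act with the corepressor Groucho on genes such as the proneural genes; its family is known to bind E-box, class C and N-box DNA motifs.

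Optimal peaks were found at 3 of the 10 genes, Act5C, alphaTub84B and gammaTub23C. Of all protein-coding genes, 17.1% had such a peak in the same kind of window. All 3 were ubiquitous members, 3 of 6, and none of the 4 restricted members had an optimal summit in its window. With 10 genes and no second condition, these counts are a description and were not tested.

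Sequences at these 3 peaks are shown because some of the positions and motifs below refer to them. Bases are from the dm6 RefSeq genome, on the plus strand, which is also the strand of all 3 genes, and capitals mark the motif letters searched. For Act5C the sequence is the summit with 100 bp on either side, chrX:5900113-5900313, in intergenic DNA. Its capitals are an E-box CACCTG and the reverse complement of the GAGA motif, the latter beyond the end of the peak at X 5900266.
Act5C summit: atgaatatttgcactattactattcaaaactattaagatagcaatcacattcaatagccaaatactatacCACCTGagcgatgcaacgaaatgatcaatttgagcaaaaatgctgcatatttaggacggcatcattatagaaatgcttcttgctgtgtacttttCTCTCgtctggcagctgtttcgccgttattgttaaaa
For gammaTub23C it is cut in the same way, chr2L:2972530-2972730, between 2 divergent genes. Its capitals are a single N-box.
gammaTub23C summit: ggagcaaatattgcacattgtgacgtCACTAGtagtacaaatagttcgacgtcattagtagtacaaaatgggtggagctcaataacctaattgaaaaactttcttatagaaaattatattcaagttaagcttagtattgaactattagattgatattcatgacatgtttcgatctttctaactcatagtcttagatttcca
For alphaTub84B the part of the peak upstream of the start site is given, chr3R:7086499-7086598. Its capitals are, in order, GAGA in reverse complement, the initiator letters and a TATA box. They lie outside the 100 bp on either side of the summit that were searched for motifs below. The GAGA match at −38 bp and the N-box at 75 bp from the summit, given below, are not in the sequences shown.
alphaTub84B upstream: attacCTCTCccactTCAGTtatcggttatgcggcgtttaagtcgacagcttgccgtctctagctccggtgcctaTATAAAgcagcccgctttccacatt
The summit of the alphaTub84B peak lies beyond this stretch, in the 5′ UTR, beside a class C match at chr3R:7086702-7086723, which is shown in capitals in reverse complement.
alphaTub84B class C match: ttccttgtCGCGTGtgaaacac
For contrast, the 100 bases upstream of the start are given for a ubiquitous and a muscle-restricted gene that had no optimal peak. alphaTub84D, chr3R:7530653-7530752, held none of the motifs in this stretch, and Act88F, chr3R:15439869-15439968, held initiator, GAGA and TATA letters, in that order.
alphaTub84D upstream: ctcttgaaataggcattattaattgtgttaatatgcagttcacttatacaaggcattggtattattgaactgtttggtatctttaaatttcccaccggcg
Act88F upstream: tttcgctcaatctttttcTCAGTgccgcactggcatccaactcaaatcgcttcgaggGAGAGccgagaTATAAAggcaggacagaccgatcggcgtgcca

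Act5C, a cytoplasmic actin gene on X at 5900861-5905399 (FBgn0000042), had the strongest region of the 10. The authors' signal at its optimal peak was 285 in the pooled list, and 90.4, 124 and 68.8 in replicates 1, 2 and 3. The corresponding ranks were 304 in the pooled list and 317, 250 and 436 in the replicates. The 3 replicate ranks lay close together, and each was within the 2397 strongest regions of its list. The replicate summits lay 2, 4 and 19 bp from the pooled summit. The peak was 173 bp wide, against a median of 384 bp in the optimal set, with a −log10 q of 3.32. Its summit at X 5900213 was at −648 bp from the first Act5C start site. It lay in no other protein-coding gene's window, but at −224 bp from the start of lncRNA:CR45668, a non-coding RNA gene, which was nearer than any Act5C start. Among the 10594 genes with a pooled region, Act5C stood at place 391.

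The other Act5C regions were weak. The pooled list placed 7 summits in its window, and the second strongest, at −449 bp, had rank 4796. It was matched in replicates 2 and 3 at ranks 3564 and 2827 and had no match in replicate 1. A further optimal peak lay upstream of the window, with its summit at X 5896179, at −4682 bp from the Act5C start and 2682 bp beyond the window edge. Its rank was 236 in the pooled list and 270, 225 and 330 in the replicates, so it ranked above the peak inside the window in each replicate. Act5C was the protein-coding gene with the nearest start to both peaks.

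Act42A, the other cytoplasmic actin gene, on 2R at 6013910-6015689 (FBgn0000043), had 1 pooled region, at −355 bp from its start. Its strongest region had rank 18807 in the pooled list and ranks 11226, 29122 and 19932 in the replicates. These ranks lie deep in lists that contain background regions. At the −355 bp site itself the replicate ranks were 18339, 29122 and 19932, with summits 74, 40 and 46 bp away. Act5C and Act42A were therefore far apart in every list, and their ranges over replicates did not overlap.

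alphaTub84B, a ubiquitous α-tubulin gene on 3R at 7086599-7088839 (FBgn0003884), had an optimal peak over its start. Its summit at 3R 7086691 was at 92 bp past the start, in the 5′ UTR. The signal was 111 in the pooled list and 41.1, 55.9 and 21.8 in replicates 1, 2 and 3. The ranks were 1737 in the pooled list and 1548, 1304 and 3445 in the replicates, so replicate 3 alone placed it outside its 2397 strongest regions. The −log10 q was 2.50. The same summit lies in the 2 kb upstream of Tailor, which encodes a terminal uridylyltransferase, but the alphaTub84B start is the nearest. By pooled rank this was the lowest of the members in the optimal set, where the signal of the lowest peak was 90.6.

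alphaTub84D, the near-identical partner of alphaTub84B on 3R at 7530753-7532732 (FBgn0003885), did not share this pattern. It had 1 pooled region, at 601 bp into the gene in coding sequence, with rank 28833. Replicate 2 held a region there at rank 7042, and replicates 1 and 3 held none in the window. The coding sequences of the 2 genes were identical at 92.2% of aligned bases, and 12.0% of the coding positions of alphaTub84D began a 36-base sequence that occurs more than once in the genome, against 10.7% in alphaTub84B. No such repeated position lay outside coding sequence in either gene. The alphaTub84B summit in the 5′ UTR was thus in sequence that is unique at this length, whereas the alphaTub84D region was in coding sequence. The authors' treatment of reads that map more than once is not stated in these sources. The part of repeated sequence in the low rank of alphaTub84D was not tested.

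gammaTub23C, the γ-tubulin gene of somatic centrosomes, on 2L at 2972891-2974858 (FBgn0260639), had the second strongest region of the 10 in the pooled list and in replicate 3, and the third, after alphaTub84B, in replicates 1 and 2. The signal at its optimal peak was 131 in the pooled list and 36.3, 55.9 and 38.1 in replicates 1, 2 and 3. The ranks were 1367 in the pooled list and 1910, 1309 and 1326 in the replicates, each within the 2397 strongest regions. Its −log10 q was 2.96. The summit at 2L 2972630 was at −261 bp from the gammaTub23C start and at −122 bp from the start of Rrp1, which encodes a DNA repair endonuclease and is transcribed the other way. The peak therefore cannot be given to gammaTub23C alone.

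A second pooled summit, at −52 bp from the gammaTub23C start, had rank 4712. In replicate 2 this site had a region of its own at rank 1903, while in replicates 1 and 3 a single region served both sites. Its summit was 27 and 135 bp from the stronger pooled summit in replicates 1 and 3, and 182 and 74 bp from the weaker. The replicate 3 region thus lay nearer to the weaker site. In the gene, a region at 1404 bp had rank 5195 in the pooled list and ranks 2316, 26382 and 14319 in the replicates. Only replicate 1 placed it among its 2397 strongest.

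betaTub56D, the β-tubulin gene used throughout the embryo, on 2R at 19447319-19451600 (FBgn0284243), was by pooled rank the highest of the members outside the optimal set. Its strongest pooled region had rank 3316, signal 74.5 and a −log10 q of 1.05. That summit was in an intron, at −150 bp from the second, internal start site. It was matched in replicates 1, 2 and 3 at ranks 8072, 5237 and 7356, below the ranks of the whole gene's strongest regions, which were 4519, 2990 and 5232. These strongest regions were not at the same place in the replicates. The second pooled region, rank 3727, lay at −832 bp from the betaTub56D start but at −72 bp from the start of CG7744. It supplied the strongest region of replicate 2. The pooled list held 6 summits in the window, 2 of them nearest to the start of another gene.

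betaTub60D, the β3-tubulin gene of mesoderm, muscle and chordotonal organs, on 2R at 24305881-24313099 (FBgn0288686), was the strongest of the restricted members in the pooled list and in replicates 1 and 2, but not in replicate 3, where Act88F and Act87E ranked higher. Its best rank was 5085 in the pooled list and 4182, 3948 and 12493 in the replicates. Its strongest pooled region lay in the 3′ UTR at 6327 bp past the start and had a match in replicates 1 and 2 only. The next, at 55 bp past the start with pooled rank 6197, was matched in all 3 replicates, at ranks 12788, 3948 and 21064. The window of betaTub60D is the longest of the 10 and held 6 pooled summits, as many as that of betaTub56D.

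alphaTub67C, the maternal α-tubulin gene, on 3L at 9681268-9683370 (FBgn0087040), had a best rank of 16256 in the pooled list and 21723, 12665 and 13156 in the replicates. Its pooled region was at 1879 bp into the gene and was matched in replicates 1 and 2. Act88F, the actin gene of the indirect flight muscle, on 3R at 15439969-15442177 (FBgn0000047), had best ranks of 22746 in the pooled list and 27874, 16702 and 7638 in the replicates. The strongest Act88F regions of replicates 1 and 2 lay near each other, at 868 and 976 bp into the gene, and that of replicate 3 lay upstream, at −1699 bp. Each of the 2 pooled regions of Act88F was matched in 1 replicate. No order between alphaTub67C, Act88F and Act42A can be read from these values, since which of any pair ranked higher changed with the replicate.

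Act87E, a muscle actin gene on 3R at 13425983-13428375 (FBgn0000046), had no pooled summit in its window. Replicates 1 and 3 held regions upstream of it at ranks 21685 and 9429, at −580 and −295 bp from the start, and replicate 2 held none. An optimal peak nevertheless reached into the gene: it spanned 3R 13428247 to 13428630, and its summit at 13428439 was 64 bp past the 3′ end of the annotated gene. Its rank was 1408 in the pooled list and 922, 2519 and 1284 in the replicates, and among protein-coding genes the nearest start was that of Act87E, 1992 bp away. The count of 0 restricted genes with an optimal peak thus rests on the summit position; by any overlap of the peak with the window the count was 1 of 4 and the ubiquitous count stayed at 3 of 6. With each summit given only to the nearest start, the counts were 1 of 4 and 2 of 6, since the gammaTub23C peak then went to Rrp1.

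**Figure D1:**
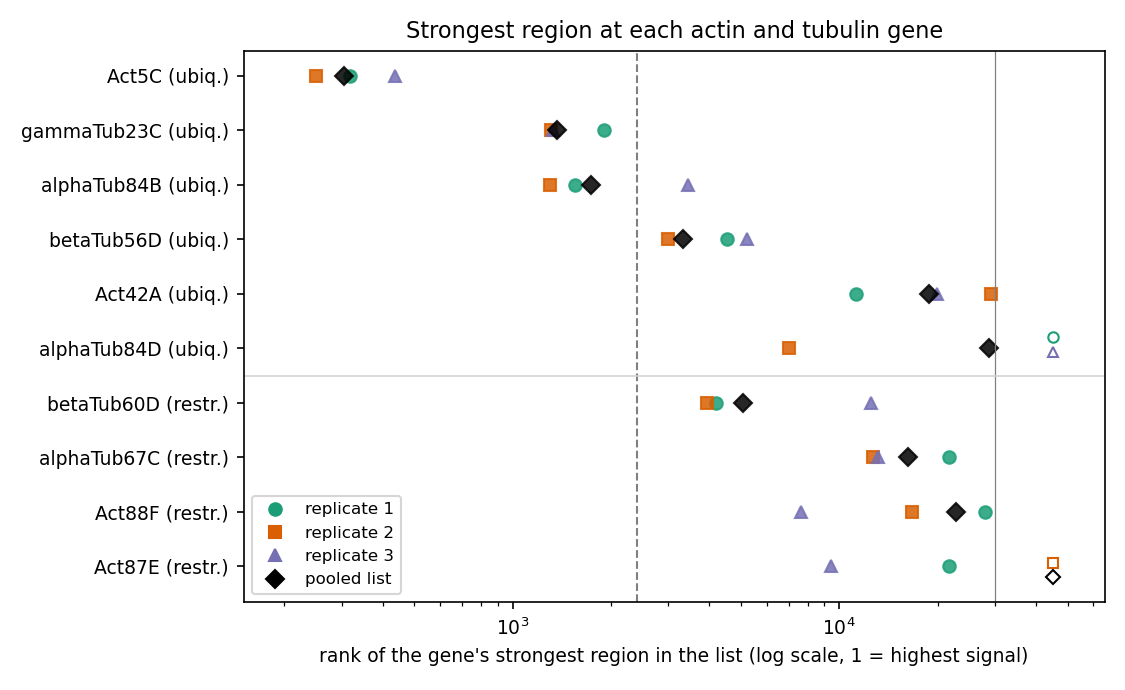
Rank of the strongest region in each gene's window (x axis, log scale, 1 = highest signal) for the pooled list and each replicate list; genes are in rows, ubiquitous above the grey line and restricted below it. The dashed line is rank 2397, the size of the optimal set, the solid line is the list end at 30000, and open symbols to its right mark lists with no region in the window; Act5C and gammaTub23C are the genes with all symbols left of the dashed line.

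By the pooled list the order was Act5C, gammaTub23C, alphaTub84B, betaTub56D, betaTub60D, alphaTub67C, Act42A, Act88F and alphaTub84D, with Act87E last for want of a region. Within every replicate Act5C ranked above all the other genes, and its range of 250 to 436 did not overlap with theirs. gammaTub23C, at 1309 to 1910, and alphaTub84B, at 1304 to 3445, changed places between replicates and cannot be ordered. Both ranked above betaTub56D, at 2990 to 5232, in each replicate, although the range of alphaTub84B overlapped with that of betaTub56D. betaTub56D and betaTub60D changed places between replicates, and betaTub60D ranked above alphaTub67C and Act42A in each. The plot of strongest regions by gene shows this as a narrow spread at the top and a wide one below.

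Looser criteria took in nearly all members. Pooled regions were present at 9 of 10 members, where 76.0% of all genes had one, and any region in every replicate at 8 of 10, where 57.8% had one. One of the 2397 strongest regions of every replicate was present at 2 of 10 genes, Act5C and gammaTub23C, where 11.5% of all genes had one. Taken singly, replicate 1 gave 3 of 10 against 17.3% of all genes, replicate 2 gave 3 of 10 against 16.6%, and replicate 3 gave 2 of 10 against 17.2%. alphaTub84B was the gene missing in replicate 3.

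Between the 2 classes, the median best rank in the pooled list was 2526.5 for the 6 ubiquitous genes and 16256 for the 3 restricted genes with a region, against 7606.5 for all genes with one. The genes with a region differ between lists, since alphaTub84D had none in replicates 1 and 3 and Act87E none in replicate 2 or the pooled list. With genes that have no region placed just past the list end, the ubiquitous and restricted medians were 2526.5 and 19501 in the pooled list, 3214.5 and 21704 in replicate 1, 2149.5 and 14683.5 in replicate 2, and 4338.5 and 10961 in replicate 3, beside 11826 for all genes in the pooled list. The ubiquitous median was the lower rank number in each of these lists; in replicate 3 the restricted median was also below the 12237 of all genes. The classes nevertheless overlapped within every list. In the pooled list the ubiquitous genes ran from 304 to 28833 and the restricted genes from 5085 to 22746, with Act42A and alphaTub84D among the weakest of all. The median gene length was 2110.5 bp for ubiquitous and 2301 bp for restricted members, and 2166 bp for all genes. The part of gene length in the ranks of the classes was not tested. No test of the classes was made.

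**Figure D2:**
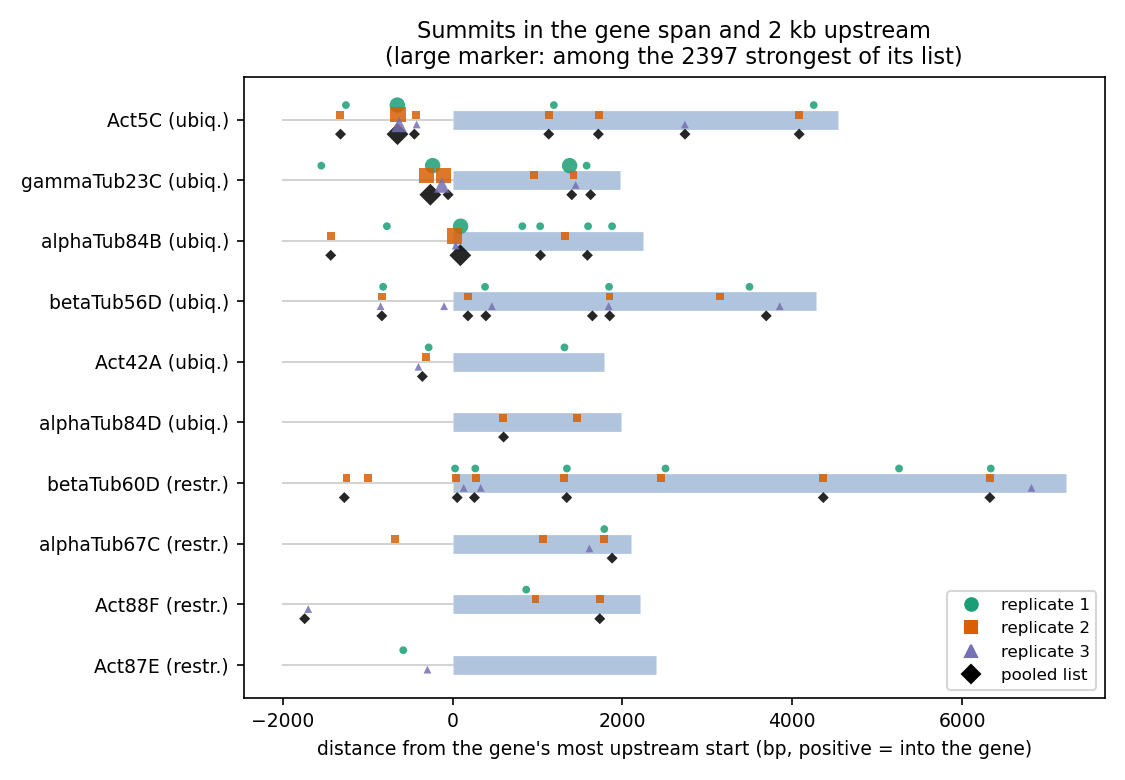
Summits in each gene's window, as the distance in bp from the gene's most upstream start site (x axis, positive into the gene); blue bars are gene spans, thin lines the 2 kb upstream, and symbol and colour give the list. Large symbols, those among the 2397 strongest of their list, occur at Act5C and upstream of gammaTub23C in every list, at the start of alphaTub84B in all but replicate 3, and inside gammaTub23C in replicate 1.

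The pooled list held 32 summits in the 10 windows, 23 at ubiquitous and 9 at restricted genes. Their number per kb of window ran from 0 at Act87E to 1.07 at Act5C, beside 0.273 over the windows of all genes. The latter is all summits over the summed window length, so long genes weigh more in it. Act5C, gammaTub23C, betaTub56D and alphaTub84B were at 0.943 or above, and Act42A, alphaTub84D and alphaTub67C were at 0.244 to 0.265, near the value over all genes. Of the 32 summits, 10 were in coding exons, 9 in intergenic DNA, 8 in introns, 3 in 5′ UTRs and 2 in 3′ UTRs. Of the 32, 12 lay within 500 bp of a start site of their own gene. These numbers describe the members only, since no share over all pooled regions is given beside them. The map shows the summits spread along the genes, with the strong regions at or upstream of starts except for 1 region inside gammaTub23C.

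A match in all 3 replicates, with summits within 200 bp of the pooled summit, was found for 10 of the 32 sites, or 31.2%, where 7095 of the 30000 pooled regions had one, or 23.6%. They were the optimal sites of Act5C, alphaTub84B and gammaTub23C, 2 further gammaTub23C sites, 2 sites each of betaTub56D and betaTub60D, and the Act42A site. As stated above, the gammaTub23C sites at −261 and −52 bp shared their regions in replicates 1 and 3. The other 22 sites were each missing from at least 1 replicate.

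**Figure D3:**
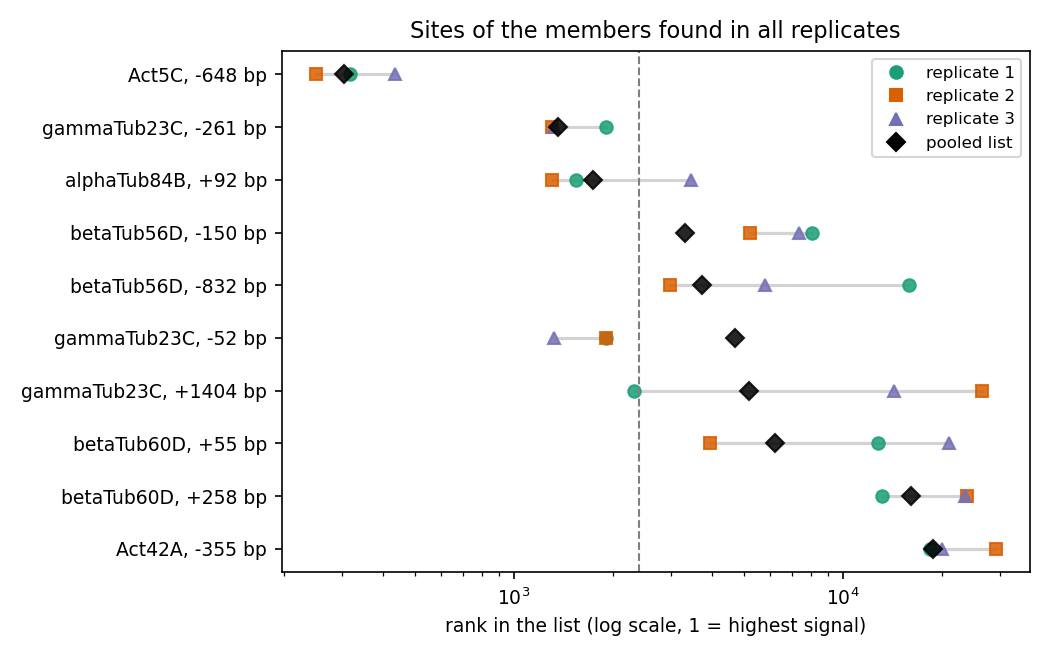
The 10 member sites with a match within 200 bp in all replicates, each labelled by gene and by the distance of the pooled summit from the nearest start of that gene; the x axis is the rank in each list (log scale), grey lines join the replicates and the dashed line is rank 2397. The Act5C site is narrow at 250 to 436, and the gammaTub23C site at +1404 bp spans 2316 to 26382.

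Of the 9 motifs searched within 100 bp of the summit, on both strands, 6 gene and motif pairs were present at the 3 optimal summits. The motifs of the helix-loop-helix kind were the class B E-box (CACGTG), the class C site (CACGCG), the E-box CACCTG and the N-box (CACNAG). The promoter motifs were the DRE (TATCGATA), the initiator (TCAGT) and the TATA box, searched as TATAAA. The letters GAGAG were searched for GAGA factor, and CAGGTAG for Zelda, an activator of the early embryonic genome. None contains another, and CACCTG read in reverse shares 5 letters with the Zelda motif. The Act5C window held CACCTG at −30 bp and GAGA at 64 bp from the summit. The alphaTub84B window held class C at 19 bp, N-box at 75 bp and GAGA at −38 bp, and the gammaTub23C window held an N-box at −74 bp.

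N-box and GAGA letters were common among summits, and CACCTG and class C letters were not. CACCTG was present in 6.09% of optimal summit windows and 11.2% of the other pooled windows, class C in 3.21% and 5.5%, N-box in 21.7% and 27.1%, and GAGA in 24.2% and 25.0%. TATA letters, absent from the members' optimal summit windows, were present in 28.8% of optimal and 13.1% of the other pooled windows. GC content was 35.3% in the Act5C window, 37.3% at alphaTub84B and 31.3% at gammaTub23C, beside 37.3% over all optimal windows. In the promoter windows, from 250 bases before to 50 after the gene start, GAGA was present at 7 of 10 genes and in 29.7% of all promoters, TATA at 6 and in 45.8%, and initiator letters at 8 and in 51.5%. N-box was present at 3 genes, Act5C, alphaTub84D and betaTub60D, and in 29.7% of all promoters. DRE was present at alphaTub67C alone and in 9.36% of all promoters, and no member had class B, class C, CACCTG or Zelda letters there. TATA letters were present at Act5C, alphaTub84B and gammaTub23C, the genes with an optimal peak, and also at Act87E, Act88F and betaTub56D. No motif was present only at genes with an optimal peak: the GAGA and TATA letters of alphaTub84B, for example, were also present at Act88F. Differences in promoter letters were not tested.

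The genes whose replicate ranks were most like those of the members with an optimal peak were found among 8066 genes with a region in every replicate, as the smallest mean absolute difference of log10 rank over the 3 replicates. For Act5C they were CG15111 and CG15118, which share a peak at ranks 278, 267 and 416, with a difference of 0.0353. For alphaTub84B they were tex, at ranks 1566, 1375 and 3026, and CG9121, at ranks 1617, 1560 and 3583, with differences of 0.0281 and 0.0379. For gammaTub23C they were CG16978 and Sr-CIII, with differences of 0.013 and 0.014.

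Genes that act with actin and tubulin were taken as 7 lists of 81 genes. The shares with an optimal peak ran from 11.1% to 41.2% over the lists, beside 17.1% of all protein-coding genes, and were not tested. Of the 6 other actin and tubulin genes, betaTub97EF had an optimal peak, at −597 bp, with rank 2211 in the pooled list and 1647, 1978 and 3285 in the replicates. The other 5, Act57B, Act79B, alphaTub85E, betaTub85D and gammaTub37C, had none. The muscle actin Act57B came nearest, with a pooled rank of 5013. Like Act5C and gammaTub23C, betaTub97EF had its summit upstream of the gene in intergenic DNA.

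Among γ-tubulin's partners, 2 of 7 ring complex genes had an optimal peak, 28.6%, beside 17.1% of all protein-coding genes. Grip91 had rank 126 in the pooled list and 139, 162 and 110 in the replicates, but its peak lay in an intron at −174 bp from the start of CG11151. Grip71 had rank 575 and replicate ranks of 871, 665 and 405, at −191 bp from its own start and in a 5′ UTR, 33 bp from the start of Faf2. Like the gammaTub23C peak, both were nearer to another gene's start. Of the 8 subunits of the chaperonin that folds actin and tubulin, CCT5 had one, at −1999 bp, the edge of its window, and nearest to the start of Oda. Of 9 genes of the Arp2/3 complex and actin-related proteins, Arp3, which nucleates branched filaments, had one at −212 bp, with rank 821, nearer to the start of msk.

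Actin filament regulators had the most, 7 of 17 or 41.2%. The median gene length of this list was 8904 bp, beside 2166 bp for all genes. It was 10230 bp in the muscle filament list and 10794 bp in the microtubule list below. The part of gene length in these shares was not tested. The 7 regulators with an optimal peak were led by tsr, the fly cofilin, at rank 371 and ena, an elongation factor, at rank 376. Next came the nucleator spir at rank 677 and the fascin gene sn at rank 1875. For tsr the replicate ranks were 1008, 328 and 240, and for ena 704, 332 and 298. All 4 summits were classed as intronic, 1449 bp or further from a start of the gene.

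Of 14 muscle filament genes, 3 had an optimal peak, or 21.4%, beside 17.1% of all protein-coding genes. They were sls, which encodes the titin-like protein of the sarcomere, at rank 485, Actn, the α-actinin gene, at rank 1360 but nearer to usp, and TpnC47D, a troponin C gene, at rank 2271. Of 20 microtubule-associated and motor genes, 4 had one, or 20.0%. These were chb, the CLASP gene, at rank 617 but nearer to the start of Ac78C, the dynein heavy chain gene Dhc64C at rank 682, tacc at rank 864 and the spectraplakin gene shot at rank 1606. tacc had ranks of 1177 and 972 in replicates 2 and 3 but 15905 in replicate 1.

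**Figure D4:**
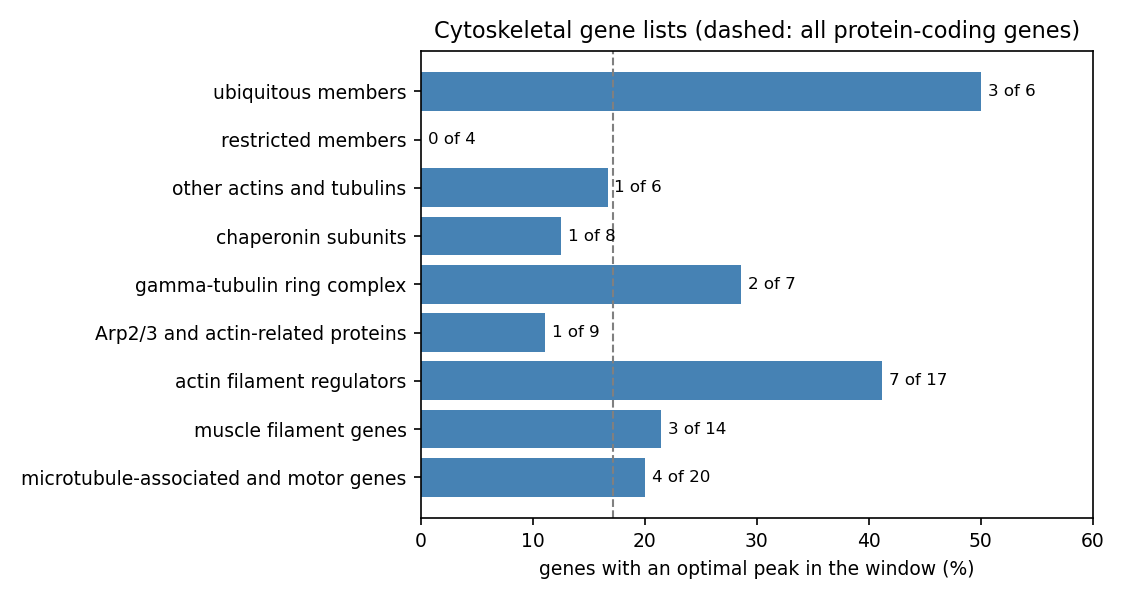
Share of genes with an optimal peak in the window (x axis, %), for the 2 classes of members and the 7 related lists, with counts beside the bars. The dashed line is the 17.1% of all protein-coding genes; the bars rest on 4 to 20 genes each and carry no test, and the actin filament regulators stand at 7 of 17.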

How the data were processed

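ChIP-seq regions of HLHm7-GFP embryos in 3 biological replicates, numbered as in the labels, were analysed as 1 group. Per the deposited file descriptions, the authors called regions in each replicate and in the pool of all 3, with the same control alignment for every dm6 list, and derived the optimal set by IDR. No label or header used here names the aligner, the caller or a cutoff for IDR (not given in the sources used here). The deposited signal value per region has no stated scale and served for ranks within a list; the deposited q-value is given as −log10. Fragmentation was by sonication, with a size range of 200 to 800 bp per the labels. No read numbers are in the files used, so depth and counting error are unknown.

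Summits were the region start plus the offset column, written 1-based. Genes were those of Ensembl release 115 on 2L, 2R, 3L, 3R, 4 and X, and promoter windows were taken at their starts from the dm6 RefSeq genome; RefSeq sequence is credited to that assembly. Feature and start-site distances refer to annotated transcripts, the nearest own start being used where a gene has several. No 2 replicate lists held a region with identical coordinates and signal. The assignment was tested on simulated summits. All symbols of the related lists matched, 2 of them by synonym. The genes named are all 10 members, up to 4 genes with an optimal peak per related list in rank order, and the 2 genes most like each member with an optimal peak by replicate ranks; genes named beyond this as having no peak (Act57B and the other family members) were added after their values were seen. The members, classes and lists were chosen with earlier results of these data known. Alternatives were other windows and list lengths, assignment by overlap or nearest start, the stronger part of the optimal set, smaller or larger motif windows, a closer match between replicates and leaving out each replicate. Computations used Biopython 1.88, pandas 2.3.3, NumPy 2.4.6 and Matplotlib 3.10.9 under Python 3.11.15.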

Additional observations from a re-analysis of the deposited data

How the results depend on the processing

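The count of 3 members with an optimal peak, all ubiquitous, was 1 with no upstream sequence (alphaTub84B). It was 2 with 500 bp of upstream sequence, without Act5C, and 1 in the upper-signal part of the optimal peaks (Act5C). Counts for the ubiquitous members alone were the same. The count of 0 restricted members was 1 by any overlap and 1 by nearest start only, Act87E in both; by nearest start the ubiquitous count was 2, without gammaTub23C. Pooled regions were at 9 members, and at 4 and 5 when the list was held to its 5000 and 10000 highest. No share of all genes is given for the altered settings of this paragraph, so counts under them have no background beside them. A top region in every replicate was at 2 members, at 0 and 1 with no and 500 bp of upstream sequence, at 1 and 4 for the 1000 and 10000 highest, and at 1 for summits within 50 bp in all replicates. Motif matches at the 3 summits were 6, and 3 and 10 within 50 and 200 bp of the summit in place of 100 bp. Leaving out each replicate in turn gave 2 to 3 members with an optimal peak, all ubiquitous (2 to 3), and 0 to 0 restricted; without replicate 1 or without replicate 2, alphaTub84B was lost. Peaks were still those called with all 3 replicates, with the added demand of a top region in each remaining replicate, which alphaTub84B missed at rank 3445 in replicate 3. The counts of members with an optimal peak could therefore only fall, and the restricted count of 0 could not change. The same settings gave 2 to 3 members with a top region and 8 to 9 with any region in every remaining replicate. Requiring any regions to lie within 200 bp in all replicates, chosen after seeing the data, gave 7 in place of 8. Act5C's best pooled rank was 13043 with no and 4796 with 500 bp upstream. No paired analysis was possible because there is 1 group. The windows of the 7 other genes held no optimal summit. Depth is unknown, and this does not show that binding was absent there. An optimal peak did overlap Act87E, as described above.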

Other observations

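Act5C and Act87E aside, the nearest optimal summit outside a member's window had its nearest start at another protein-coding gene. That of betaTub56D lay 5024 bp downstream of its window, at −47 bp from the start of RpL11, a ribosomal protein gene, with rank 263 in the pooled list and 241, 279 and 300 in the replicates. That of alphaTub67C lay 9814 bp downstream in an intron, nearest to the start of Prps, with rank 190 and replicate ranks of 424, 176 and 328. That of betaTub60D lay 14668 bp downstream, with rank 117 and replicate ranks of 98, 142 and 122. Those of alphaTub84D, Act88F and Act42A lay 22266, 30778 and 35219 bp from their windows.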
